A study of Mus musculus with 2 samples.

Results

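The genes of osteoclast cell fusion followed here were *Dcstamp*, *Ocstamp*, *Atp6v0d2*, *Cd9*, *Cd81* and *Cd47*, which are 6 of the 32544 genes counted in both libraries. They were taken by symbol from a list of known fusion genes, and every one of the 6 had a row and passed the minimum mean level of 1 CPM. A CPM is 1 UMI (unique molecular identifier, a tag for a captured RNA molecule) in 1000000 UMIs of the cells summed. The data were 3′ droplet single-cell RNA-seq of mouse bone marrow-derived monocytes made to form osteoclasts, with 1 control and 1 mutant library. The study asked what loss of *Arid1a*, a DNA-binding subunit of the SWI/SNF chromatin remodelling complex, does to osteoclast formation, and the comparison made here is of the fusion genes between genotypes and between cells with and without osteoclast transcripts.

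Marrow of the femur from mice of 4 to 6 weeks was used, and both cultures received M-CSF at 50 ng/ml plus RANKL at 100 ng/ml and were collected 24 h after RANKL. The mutant was LysM-Cre;Arid1afl/fl, in which Cre under the lysozyme M promoter acts in myeloid cells on floxed exons 5 and 6 of *Arid1a*. The control carries the label CONTROL, and its alleles and strain, and whether either library pooled animals, are not given in the sources used here. The level of *Arid1a* was 51.9 CPM for the control library and 20.4 for the mutant, a log2 ratio of -1.35. A 3′ tag also counts transcripts of a recombined allele that keep their 3′ end, so this level is no measure of how many cells lost the exons. With 1 library per genotype no difference between genotypes has a replicate check and no p-value is given. All intervals below are 95% intervals and cover counting error only. They are exact Poisson for levels, exact conditional for ratios of 2 counts and Clopper-Pearson for shares. Weighted levels have a normal approximation. Differences between 2 log2 ratios combine the arms of both intervals in quadrature.

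Osteoclasts are multinucleated cells that form when mononuclear precursors of the monocyte lineage meet M-CSF and RANKL, migrate to one another and fuse. RANKL signalling through NFATc1 switches on DC-STAMP and OC-STAMP, multipass membrane proteins without which precursors stay mononuclear, and the d2 subunit of the proton-pumping V-ATPase, encoded by *Atp6v0d2*, whose loss in mice also impairs fusion. CD9 and CD81 are tetraspanins, membrane organisers found on many cell types that affect cell fusion, and CD47 is a widely expressed surface protein that binds SIRPα on neighbouring macrophages. Cathepsin K (*Ctsk*) and MMP9 (*Mmp9*) are proteases of the osteoclast that degrade bone matrix, and they served as a readout of osteoclast commitment that holds no fusion gene.

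Cells needed 500 genes and no more than 10% of UMIs from mitochondria, which 6269 control and 5663 mutant cells met, with medians of 23978 and 21734 UMIs. Macrophage markers were seen in both libraries, but not all alike. *Csf1r*, the M-CSF receptor, had a UMI in 95.7% of control and 94.1% of mutant cells, and *Cd68* in 97.8% and 95.7%. *Adgre1* was seen in 83.1% and 94.6%, and *Fcgr1* in 29.0% and 70.3%, so both were seen more often in the mutant. Neutrophil transcripts moved with genotype, since *S100a8*, *S100a9*, *Camp* and *Ngp* (4 of 4) were higher in the mutant (11.95 to 111 CPM in the control and 73.8 to 880 in the mutant). Cells with at least 2% of their UMIs from these 4 genes numbered 18 in the control and 88 in the mutant. Leaving them and 3 stromal-marker cells per library out gave mutant-over-control log2 ratios of -2.35 for *Dcstamp*, -0.74 for *Ocstamp*, -1.29 for *Atp6v0d2*, 0.48 for *Cd9*, 0.11 for *Cd81* and 0.77 for *Cd47*, as large as with them. The libraries shared 8 barcodes, or 0.124% of the control's.

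Across whole libraries the fusion genes did not move alike. The transcripts of the fusion receptors and of the V-ATPase d2 subunit were lower in the mutant library, those of *Cd9* and *Cd47* were higher, and *Cd81* was close to its control level. A sum over a library cannot tell fewer cells that carry a transcript from less transcript per cell. At a mean of at least 1 CPM, 2 of 6 fusion genes were at least 2-fold lower in the mutant, against 2.69% of 10828 genes, and 0 of 6 were at least 2-fold higher, against 7.11%. The median log2 ratio of the 6 was -0.32 beside 0.064 over all genes, but that median lies between 3 genes that were lower and 3 that were higher and describes none of them.

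*Dcstamp* (gene ENSMUSG00000022303, chromosome 15, 39609214 to 39624334 of GRCm39, + strand) encodes the fusion receptor DC-STAMP. It gave 1937 UMIs or 11.8 CPM in the control (11.3 to 12.4) and 303 UMIs or 2.30 CPM in the mutant (2.05 to 2.58). The intervals were far apart, and the log2 ratio of -2.36 (-2.54 to -2.18) was lower than that of all but 0.36% of genes. *Ocstamp* (ENSMUSG00000027670, chromosome 2, 165235680 to 165242336, - strand), which encodes the related receptor OC-STAMP, gave 806 UMIs or 4.93 CPM in the control (4.59 to 5.28) and 386 UMIs or 2.94 CPM in the mutant (2.65 to 3.24). Its log2 ratio of -0.75 (-0.93 to -0.57) was smaller than that of *Dcstamp*, so the receptors were not lower to the same extent.

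*Atp6v0d2* (ENSMUSG00000028238, chromosome 4, 19876838 to 19922614, - strand) gave 4377 UMIs or 26.8 CPM in the control (26.0 to 27.6) and 1427 UMIs or 10.9 CPM in the mutant (10.3 to 11.4). The log2 ratio was -1.30 (-1.39 to -1.22). Other V-ATPase transcripts did not share this: *Atp6v0d1*, which encodes the ubiquitous d1 subunit, stood at 126 CPM against 153 in the mutant (log2 ratio 0.28), and *Tcirg1*, the a3 subunit of the osteoclast pump, at 151 and 198 (0.39).

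*Cd9* (ENSMUSG00000030342, chromosome 6, 125437210 to 125471778, - strand) stood at 387 CPM in the control (384 to 390.5) and 538 in the mutant (534 to 542), a log2 ratio of 0.47 (0.46 to 0.49). *Cd81* (ENSMUSG00000037706, chromosome 7, 142606314 to 142621672, + strand) stood at 163 in the control (161 to 165) and 175 in the mutant (173 to 177), a log2 ratio of 0.10 (0.078 to 0.13) that turned to -0.0058 when totals left out mitochondrial and ribosomal protein genes. *Cd47* (ENSMUSG00000055447, chromosome 16, 49620896 to 49735373, + strand) stood at 215 in the control (213 to 218) and 369 in the mutant (366 to 372), a log2 ratio of 0.78 (0.76 to 0.80). Only *Cd9* and *Cd47* of these 3 were thus higher under every scaling and cell filter tried, with lowest log2 ratios of 0.36 and 0.67.

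The annotation places *Gm62978* opposite *Dcstamp*, *Gm68467* opposite *Atp6v0d2*, and 1 or more predicted genes across *Cd9*, *Cd81* and *Cd47*. How the count treated overlapping genes is not stated, so their reads could not be told apart here.

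RefSeq promoter windows were at hand for 3 of the 6 members, *Cd9*, *Cd81* and *Cd47*, and are shown since *Cd9* and *Cd47* shared a higher level in the mutant while *Cd81* did not. The 250 bases before the start of each gene are given 5′ to 3′ on the gene's strand with coordinates of GRCm38.p6, and capitals mark GGAAA, the core bound by NFAT factors, on either strand.
Cd9, chr6:125494761-125495010, - strand: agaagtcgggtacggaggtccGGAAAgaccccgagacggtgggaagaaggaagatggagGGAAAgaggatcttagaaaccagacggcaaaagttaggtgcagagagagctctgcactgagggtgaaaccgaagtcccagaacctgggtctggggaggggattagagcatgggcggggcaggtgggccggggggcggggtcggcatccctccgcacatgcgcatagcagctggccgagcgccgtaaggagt
Cd81, chr7:143052500-143052749, + strand: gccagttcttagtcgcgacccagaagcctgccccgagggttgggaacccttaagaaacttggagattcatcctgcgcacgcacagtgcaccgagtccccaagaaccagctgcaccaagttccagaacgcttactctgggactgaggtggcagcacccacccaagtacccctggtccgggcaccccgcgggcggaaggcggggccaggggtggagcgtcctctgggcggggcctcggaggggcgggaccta
Cd47, chr16:49855404-49855653, + strand: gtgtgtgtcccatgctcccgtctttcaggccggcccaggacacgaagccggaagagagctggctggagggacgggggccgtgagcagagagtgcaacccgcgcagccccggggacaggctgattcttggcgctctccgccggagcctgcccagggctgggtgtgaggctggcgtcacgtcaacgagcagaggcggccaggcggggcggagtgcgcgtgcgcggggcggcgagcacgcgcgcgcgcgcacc
GGAAA occurred at 2 positions of the *Cd9* window and at none of the *Cd81* and *Cd47* windows, while 55.6% of 32851 windows of this length hold it. GAGGAA, a core of the myeloid factor PU.1 (23.3% of windows), and the TATA box TATAAA (12.4%), also searched on both strands, were in none of these 3 windows. GAGGAA and GGAAA share letters and can overlap. These matches describe the letters in these windows only. *Cd47* has a second listed start 7 bases downstream, and *Dcstamp*, *Ocstamp* and *Atp6v0d2* had no entry.

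**Figure D1:**
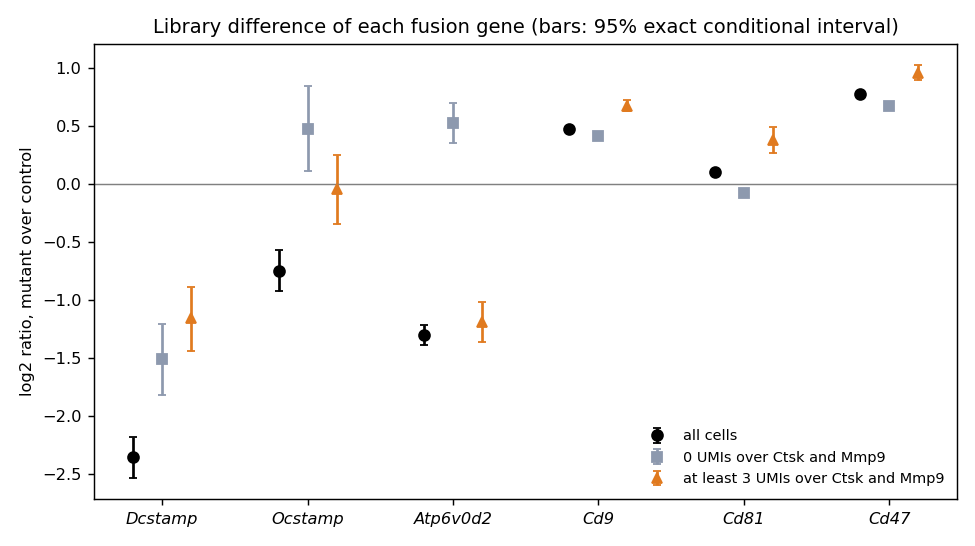
Log2 ratio of mutant over control for each fusion gene in all cells (black), in cells with 0 UMIs over *Ctsk* and *Mmp9* (grey) and in cells with at least 3 (orange), with 95% exact conditional intervals. *Dcstamp* lies below 0 in all 3 settings, *Ocstamp* and *Atp6v0d2* lie below 0 in all cells and above 0 in cells without *Ctsk* and *Mmp9* UMIs, and *Cd9* and *Cd47* lie above 0 throughout.

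The transcripts of DC-STAMP, OC-STAMP and the d2 subunit were also those concentrated in few cells. In the control, *Dcstamp* had at least 1 UMI in 798 of 6269 cells (12.7%, 11.9 to 13.6), *Ocstamp* in 480 (7.66%, 7.01 to 8.34) and *Atp6v0d2* in 844 (13.5%). In the mutant the counts of such cells were 130 of 5663 (2.30%), 205 (3.62%) and 311 (5.49%). The highest count in 1 cell was 25 for *Dcstamp* in the control and 12 in the mutant, 11 and 12 for *Ocstamp*, and 92 and 48 for *Atp6v0d2*, so single mutant cells with high counts were present for each.

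Depth sets how often a rare transcript is seen, so each cell was thinned to 5000 UMIs, which left out 168 control and 351 mutant cells below that depth. The share of cells with a *Dcstamp* UMI was then 4.26% in the control (3.77 to 4.80) and 0.922% in the mutant (0.683 to 1.22). The share for *Ocstamp* was 1.97% (1.63 to 2.35) and 1.11% (0.847 to 1.43), and for *Atp6v0d2* 6.21% (5.62 to 6.85) and 2.56% (2.15 to 3.02). These shares follow the order of the summed levels. *Cd9* was seen in 80.1% of control and 85.6% of mutant cells, *Cd81* in 48.9% and 51.9%, and *Cd47* in 64.8% and 80.8%, so each of these 3 was seen in a large share of cells.

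RNA free in the droplets adds UMIs to cells that do not express a gene, and neutrophil-marker cells, which should lack the osteoclast transcripts, served as the background. The 88 of the mutant, with a median of 9703 UMIs, held no UMI of *Dcstamp*, *Ocstamp* or *Atp6v0d2*, which allows up to 2.84 CPM. The 18 of the control held no UMI of *Dcstamp* or *Ocstamp* and 1 of *Atp6v0d2*, and a count of 0 there allows up to 18.0 CPM. These limits lie above the level of *Dcstamp* in the mutant as a whole. At this depth they cannot set low levels of a few CPM apart from free RNA.

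Cells were then grouped by their UMIs summed over *Ctsk* and *Mmp9*. In the control 1153 cells (18.4%, 17.4 to 19.4) had at least 3 such UMIs and are called Ctsk/Mmp9-positive, and 3729 (59.5%) had 0 and are called Ctsk/Mmp9-negative. In the mutant 237 cells (4.19%, 3.68 to 4.74) were positive and 4727 (83.5%) negative. Positive cells were deeper than negative ones, with medians of 28596 and 22259 UMIs in the control and 29109 and 20765 in the mutant. A cell with 0 UMIs may still hold the transcript. Wherever a comparison of these classes is given after thinning, the cells were also sorted anew by their thinned UMIs. The control then had 349 positive and 4913 negative cells, and the mutant 55 and 4956.

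In both libraries the fusion receptors and the d2 subunit were far higher in Ctsk/Mmp9-positive cells. Of the 6 fusion genes, 3 were at least 2-fold higher there in the control, against 1.93% of 10709 genes, and the same 3 were in the mutant, against 2.83% of 10947. The median log2 ratio of the 6 was 1.64 in the control beside 0.041 over all genes, and 1.34 in the mutant beside -0.011, and both medians again fell between these 3 genes and the other 3.

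*Dcstamp* stood at 36.6 CPM in positive and 3.53 in negative control cells, a log2 ratio of 3.37 (3.19 to 3.56). In the mutant it stood at 16.4 and 1.24, a log2 ratio of 3.72 (3.36 to 4.09). For this sum of markers the difference between the 2 steps was 0.35 (-0.06 to 0.76), but the steps moved with the markers used. They were 3.44 in the control and 5.32 in the mutant with *Mmp9* alone, and 3.33 and 2.10 with *Ctsk*, *Mmp9* and *Acp5*. *Ocstamp* stood at 15.9 and 1.17 in the control (log2 ratio 3.76, 3.45 to 4.07) and at 15.5 and 1.63 in the mutant (3.24, 2.89 to 3.59). The difference between these steps of -0.52 (-0.99 to -0.054) did not keep its sign. The mutant step was the larger after thinning and sorting anew (3.57 in the control and 3.97 in the mutant) and with *Mmp9* alone (3.76 and 4.32). The levels of *Ocstamp* in negative cells lie under the limits from neutrophil-marker cells, which cannot set them apart from free RNA.

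*Atp6v0d2* had the largest step of the 6 in the control, from 4.95 to 92.99 CPM (log2 ratio 4.23, 4.09 to 4.38). In the mutant it went from 7.14 to 40.8 (2.52, 2.32 to 2.71), which is a difference in step of -1.72 (-1.96 to -1.48). These steps also moved with the markers and limits used. They lay between 3.39 and 5.06 in the control and between 1.80 and 3.52 in the mutant, where *Mmp9* alone gave the highest.

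*Cd81* went the other way. It stood at 85.1 CPM in positive and 192 in negative control cells, a log2 ratio of -1.18 (-1.23 to -1.12). This was lower than all but 1.12% of genes. After thinning and sorting anew the control ratio was -2.26. In the mutant *Cd81* stood at 111 and 183 (-0.72, -0.82 to -0.62). *Cd47* was likewise lower in positive cells, at 168 against 233 in the control (-0.48, -0.52 to -0.44) and 327 against 373 in the mutant (-0.19, -0.25 to -0.13), a difference not seen once *Acp5* was added to the marker genes (0.0042). *Cd9* differed little and its sign turned with the choice of marker gene in both libraries, at 373 against 397 in the control (-0.09, -0.12 to -0.06) and 597 against 532 in the mutant (0.17, 0.12 to 0.21). The tetraspanins thus differed from each other in these cells, with *Cd81* lower and *Cd9* near its level in the other cells.

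**Figure D2:**
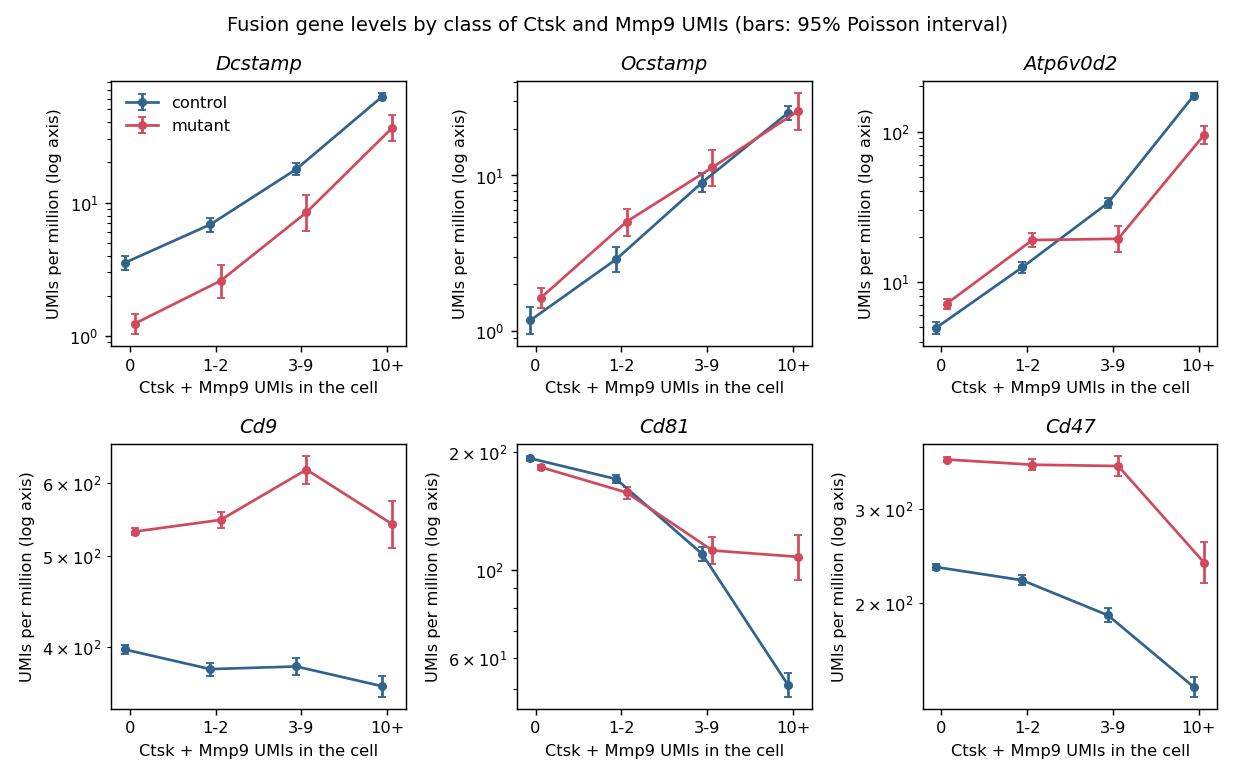
CPM (log axis) of each fusion gene in cells with 0, 1 to 2, 3 to 9 and at least 10 UMIs over *Ctsk* and *Mmp9*, in the control (blue) and mutant (red) library, with 95% Poisson intervals. *Dcstamp*, *Ocstamp* and *Atp6v0d2* climb across the classes in both libraries, *Cd81* in the control goes down from 192 to 51.2, and *Cd47* is lowest in the top class of both.

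The classes between showed graded levels. *Dcstamp* in the control stood at 3.53, 6.86, 17.8 and 62.1 CPM in cells with 0, 1 to 2, 3 to 9 and at least 10 UMIs over *Ctsk* and *Mmp9*, and in the mutant at 1.24, 2.60, 8.45 and 36.4. *Ocstamp* stood at 1.17, 2.90, 9.01 and 25.2 in the control and at 1.63, 5.04, 11.3 and 26.0 in the mutant. *Atp6v0d2* stood at 4.95, 12.5, 33.5 and 174 in the control and at 7.14, 19.0, 19.3 and 94.9 in the mutant. Each of the 3 was highest in the top class of either library, and only *Atp6v0d2* in the mutant had a flat stretch, between 1 to 2 and 3 to 9 UMIs, where the intervals overlapped (17.1 to 21.0 and 15.8 to 23.5).

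*Cd81* in the control stood at 192, 170.4, 110.1 and 51.2 CPM across the same classes. In the mutant it stood at 183, 158, 112 and 108, so the libraries were alike up to 9 UMIs and parted in the top class (log2 ratio 1.08, 0.86 to 1.29, 60 mutant cells). Without 2 stromal-marker cells and 1 neutrophil-marker cell the mutant level there was 95.3 and the log2 ratio 0.89 (0.66 to 1.12). *Cd47* stood at 233, 220.4, 189 and 138 in the control and 373, 364, 362 and 238 in the mutant. *Cd9* lay between 363 and 397 in the control and between 532 and 619 in the mutant, with no graded change.

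Since the mutant held fewer Ctsk/Mmp9-positive cells, the libraries were next compared within a class. Among negative cells 1 of 6 fusion genes was at least 2-fold lower in the mutant, against 2.26% of 10788 genes, and among positive cells 2 of 6 were, against 3.35% of 10930. *Dcstamp* was the member lower in both. Its log2 ratio was -1.51 (-1.82 to -1.21) in negative cells, -1.40 in cells with 1 to 2 UMIs, -1.07 in cells with 3 to 9 and -0.77 (-1.13 to -0.44) in the top class. The mutant level of 1.24 CPM in negative cells lies under the 2.84 CPM limit from neutrophil-marker cells, which cannot set it apart from free RNA.

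The log2 ratio of *Ocstamp* was 0.48 (0.12 to 0.84) in negative cells, 0.80 (0.40 to 1.20) at 1 to 2 UMIs, 0.32 (-0.12 to 0.75) at 3 to 9 and 0.044 (-0.39 to 0.45) in the top class, and -0.039 (-0.34 to 0.25) over all positive cells. Over positive cells it was -0.87 when they were taken by *Ctsk* alone and -0.83 when taken by *Ctsk*, *Mmp9* and *Acp5*. It was 1.04 when they were taken by *Mmp9* alone and 0.21 after thinning and sorting anew, so its direction hung on the markers. In negative cells this higher level was not seen once cells were thinned to 5000 UMIs and sorted anew (-0.19). That negative class was larger in the control, at 4913 cells against 3729 before, so depth and sorting were not told apart. *Atp6v0d2* was higher in the mutant in the low classes (0.53, 0.36 to 0.70, in negative cells and 0.60 at 1 to 2 UMIs) and lower in the high ones (-0.79 at 3 to 9 and -0.87 in the top class), with -1.19 (-1.36 to -1.02) over all positive cells. Its ratio in negative cells was 0.052 after thinning and sorting anew, and -0.013 when cells were sorted by *Ctsk* alone. Over positive cells its ratio was -0.07 with *Mmp9* alone and -1.80 with *Ctsk*, *Mmp9* and *Acp5*.

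*Cd47* was higher in the mutant in each class, with log2 ratios from 0.68 to 0.94, and so was *Cd9*, from 0.42 to 0.70. *Cd81* was -0.07 in negative cells and 0.38 (0.27 to 0.50) in positive cells. Its ratio was 0.03 (-0.10 to 0.16) at 3 to 9 UMIs and 1.08 (0.86 to 1.29) in the top class. More of the mutant's positive cells lay at 3 to 9 UMIs (177 of 237) than of the control's (703 of 1153). After thinning to 5000 UMIs and sorting anew, the *Cd81* ratio was 1.58 over 55 mutant and 349 control positive cells.

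The mutant levels were also weighted to the mix of the 4 classes that the control library had. *Dcstamp* was then at 5.90 CPM (5.02 to 6.77), against 11.8 in the control and 2.30 unweighted, which left a log2 ratio of -1.01. *Ocstamp* was at 6.05 (5.24 to 6.86) against 4.93 in the control, so its ratio of -0.75 became 0.30. *Atp6v0d2* was at 20.01 (18.6 to 21.5) against 26.8, and its ratio went from -1.30 to -0.42. The ratios of *Cd9* and *Cd47* stayed at 0.50 and 0.73, and that of *Cd81* was -0.02.

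Positive cells held 70.3% of all *Dcstamp* UMIs in the control and 40.3% in the mutant, 73.3% and 29.8% of those of *Ocstamp*, and 79.1% and 21.3% of those of *Atp6v0d2*. For *Cd9*, *Cd81* and *Cd47* the shares were 21.9%, 11.9% and 17.7% in the control, near or below the 22.7% of all UMIs in those cells, and 6.29%, 3.60% and 5.02% in the mutant, where those cells held 5.66% of UMIs. In the mutant most UMIs of the fusion receptors and the d2 subunit were counted outside Ctsk/Mmp9-positive cells. In negative cells the levels of *Dcstamp* and *Ocstamp* (1.24 and 1.63 CPM) lie under the 2.84 CPM limit from neutrophil-marker cells. Their UMIs there lay in 71 and 106 of 4727 cells, with up to 8 and 9 in 1 cell. The part of free RNA in them was not tested.

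Positive cells were not made up alike in the libraries. *Ctsk* stood at 230 CPM in the positive cells of the control and 263 in those of the mutant, but *Mmp9* at 228 and 90.8. Cells with at least 3 *Mmp9* UMIs numbered 771 in the control (12.3% of its cells) and 50 in the mutant (0.883%, 0.656 to 1.16), whereas cells with at least 3 *Ctsk* UMIs and no *Mmp9* UMI numbered 178 (2.84%) and 166 (2.93%). These Mmp9-free cells were 15.4% of the positive cells in the control and 70.0% in the mutant. The split by *Mmp9* was made after the values above had been seen.

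Among the cells with at least 3 *Mmp9* UMIs, the mutant was not lower in any fusion gene beyond counting error. *Dcstamp* stood at 46.1 CPM in the control (43.5 to 48.9) and 54.7 in the mutant (43.6 to 67.7), a log2 ratio of 0.25 (-0.09 to 0.57). *Ocstamp* stood at 20.2 (18.5 to 22.1) and 41.7 (32.1 to 53.2), a log2 ratio of 1.04 (0.64 to 1.42). *Atp6v0d2* stood at 113 (109 to 117) and 107 (91.7 to 125), a log2 ratio of -0.07 (-0.31 to 0.15). The few mutant cells with *Mmp9* thus held *Dcstamp* and *Atp6v0d2* at no lower level than the control beyond counting error and *Ocstamp* at a higher one. The 2 sets were not alike in osteoclast transcripts. In control and mutant, *Mmp9* stood at 327 and 423, *Acp5* at 460 and 676, *Ctsk* at 231 and 271, and *Nfatc1* at 153 and 137. Of these 50 mutant cells 7 were neutrophil-marker cells, which also transcribe *Mmp9*, and 2 were stromal-marker cells. In the other 41 the log2 ratios were 0.38 (0.043 to 0.70) for *Dcstamp*, 1.18 (0.78 to 1.55) for *Ocstamp* and 0.04 (-0.19 to 0.27) for *Atp6v0d2*.

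In cells with *Ctsk* but no *Mmp9* UMI the levels were lower in both libraries. *Dcstamp* stood at 9.36 in the control (6.94 to 12.3) and 2.90 in the mutant (1.62 to 4.78), a log2 ratio of -1.69 (-2.63 to -0.84). The mutant level rests on 15 UMIs and is near the 2.84 CPM limit from neutrophil-marker cells. *Ocstamp* stood at 5.61 and 6.96 (0.31, -0.43 to 1.06), and *Atp6v0d2* at 32.6 and 20.1 (-0.70, -1.06 to -0.34). Lower *Dcstamp* and *Atp6v0d2* in the mutant were thus seen in the set without *Mmp9* UMIs and not in the set with them, although the *Atp6v0d2* ratio was -0.035 when 1 *Ctsk* UMI sufficed. *Acp5*, which encodes tartrate-resistant acid phosphatase, was alike there (127 and 121), and *Nfatc1*, the RANKL-driven transcription factor, stood at 60.1 and 41.4.

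*Arid1a* moved with this split in the mutant. It stood at 36.5 CPM (27.6 to 47.4) in the 50 mutant cells with *Mmp9* and at 20.1 (16.4 to 24.3) in the 166 cells with *Ctsk* and no *Mmp9*, a log2 ratio of 0.86 (0.36 to 1.34). In the control the same cells stood at 51.4 and 55.2. Across the *Ctsk* and *Mmp9* classes the mutant held 20.2, 20.1, 20.8 and 31.6 CPM of *Arid1a*, with the top class at 24.5 to 40.2. Without 1 neutrophil-marker cell and 2 stromal-marker cells the top class stood at 27.9. The part of *Arid1a* transcripts in the fusion gene levels of these cells was not tested. The neutrophil-marker cells of the mutant, 7 of which are among the 50, had *Arid1a* at 54.8. Without them and the stromal-marker cells the remaining 41 stood at 30.8, a log2 ratio of 0.62 (0.068 to 1.14) over the cells with *Ctsk* and no *Mmp9*.

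**Figure D3:**
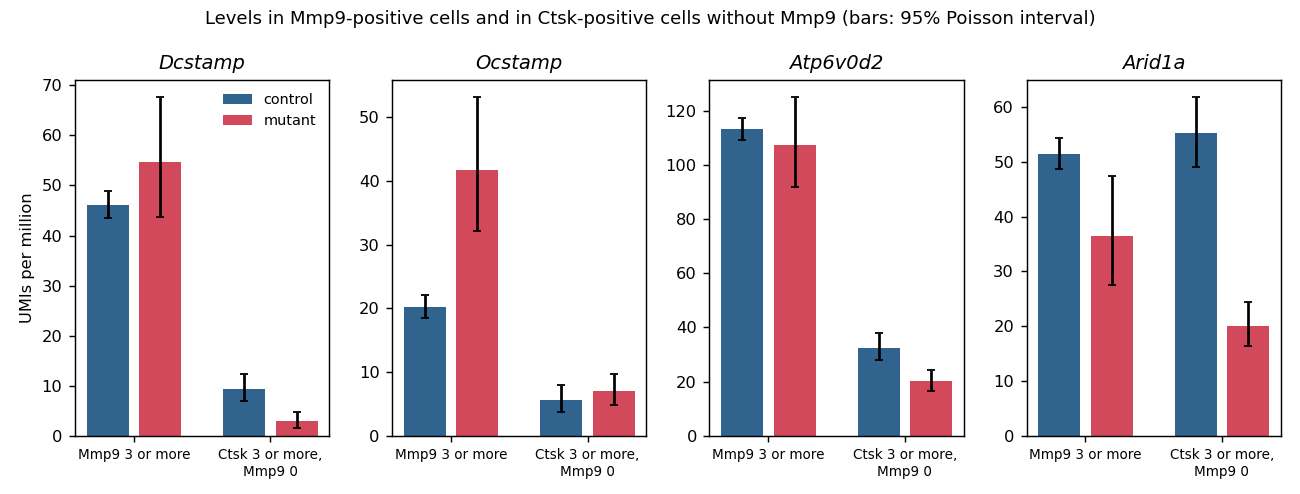
CPM of *Dcstamp*, *Ocstamp*, *Atp6v0d2* and *Arid1a* in cells with at least 3 *Mmp9* UMIs (771 control, 50 mutant) and in cells with at least 3 *Ctsk* UMIs and no *Mmp9* UMI (178 control, 166 mutant), as bars with 95% Poisson intervals, control blue and mutant red. *Dcstamp* of the mutant is 54.7 in the first set and 2.90 (from 15 UMIs) in the second, and *Arid1a* of the mutant is 36.5 and 20.1.

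*Cd9* and *Cd47* were higher in the mutant in both sets. *Cd47* stood at 154 in the control and 216 in the mutant in cells with *Mmp9* (log2 ratio 0.49, 0.32 to 0.65) and at 214 and 368 in cells without it (0.78, 0.68 to 0.89). *Cd9* stood at 347 and 412 (0.25, 0.13 to 0.37) and at 452 and 665 (0.56, 0.48 to 0.63). *Cd81* stood at 68.7 and 82.1 in cells with *Mmp9*, with a mutant level of 60.9 once neutrophil-marker and stromal-marker cells were left out, and at 125 and 123 in cells without it.

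The transcripts of the fusion receptors and the d2 subunit were met in the same cells more often than in others. At 5000 UMIs, *Ocstamp* was seen in 10.4% (6.96 to 14.7) of 260 control cells with a *Dcstamp* UMI and in 1.59% (1.29 to 1.95) of 5841 without. *Atp6v0d2* was seen in 30.8% of the former and 5.12% of the latter. In the mutant, *Ocstamp* was seen in 14.3% (5.94 to 27.2) of 49 cells with a *Dcstamp* UMI and 0.988% of 5263 without, and *Atp6v0d2* in 18.4% (8.76 to 32.0) and 2.41%. *Cd81* was seen less often beside *Dcstamp*, in 22.3% against 50.1% of control cells and in 24.5% against 52.2% of mutant cells, while *Cd9* was seen in 77.7% against 80.2% in the control. Exactly 2 of the 3 genes were seen together in 116 and all 3 in 11 of 6101 control cells, and in 15 and 3 of 5312 mutant cells.

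Cells with 3 or more UMIs of the cell cycle genes *Aurka*, *Cdk1*, *Mki67* and *Top2a* combined made up 76.7% of the positive cells of the control and 68.4% of those of the mutant. Of the neutrophil-marker cells, 61.1% in the control and 64.8% in the mutant also met this limit, at medians of 7345 and 9703 UMIs, and the part of free RNA in it was not tested. Among positive cells *Dcstamp* stood at 34.3 CPM in control cells that met the limit and 46.7 in the others (log2 ratio -0.44, -0.63 to -0.26), and at 17.9 and 11.3 in the mutant (0.66, -0.06 to 1.45). *Ocstamp* differed less, at 15.1 and 19.4 in the control and 15.1 and 16.7 in the mutant. *Atp6v0d2* differed most in negative cells, at 2.90 in control cells that met the limit and 11.1 in the others, and at 3.53 and 15.2 in the mutant.

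Negative cells held a small set with much *Atp6v0d2*, which was described after its values had been seen. Cells with at least 3 *Atp6v0d2* UMIs and none of *Ctsk* or *Mmp9* numbered 38 in the control, with 5.96% of its *Atp6v0d2* UMIs, and 76 in the mutant, with 42.1%. Their medians were 23236 and 26752 UMIs, and 44.7% and 32.9% met the limit on cell cycle genes. The 8 genes with the highest ratio, at a mean no lower than 20 CPM, were taken in each library against negative cells without *Atp6v0d2*. Of these, 4 were shared between libraries: *Mmp12*, the macrophage elastase, *Itgax*, which encodes the integrin CD11c, the chemokine *Ccl6*, and *Aph1c*, a γ-secretase subunit. *Mmp12* stood at 1769 against 69.7 CPM in the control and 2395 against 443 in the mutant, and *Itgax* at 43.0 against 0.787 and 43.4 against 3.27. *Acp5*, among the 8 in the control only, stood at 192 against 16.9 there and at 116 against 49.9 in the mutant. *Nfatc1* stood at 108 against 23.8 in the control and 39.1 against 26.3 in the mutant.

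*Dcstamp* was also higher in these *Atp6v0d2*-rich cells, at 19.98 against 3.24 in the control and 10.4 against 1.00 in the mutant. *Ocstamp* was at 7.99 against 0.920 in the control, and in the mutant at 1 UMI in the 76 cells (0.434 against 1.65 CPM). *Cd81* was lower in them in both libraries, at 68.9 against 196 in the control and 102 against 186 in the mutant. The set is chosen on *Atp6v0d2*, so its level in them is no result.

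For likeness, levels were compared as log2 values over 12 groups of cells (library, 3 classes of *Ctsk* and *Mmp9* UMIs, meeting the limit on cell cycle genes or not) among 8600 genes. The groups of a library share its preparation and cells of like depth. The groups are also split by the *Ctsk* and *Mmp9* classes across which *Dcstamp*, *Ocstamp* and *Atp6v0d2* rose and *Cd81* fell. The coefficients restate that pattern in part and are a description only. Over these groups *Dcstamp* correlated with *Ocstamp* at 0.82 and *Atp6v0d2* at 0.84, and *Ocstamp* with *Atp6v0d2* at 0.87. *Cd81* correlated with these 3 at -0.80, -0.93 and -0.88, and *Cd47* with *Cd9* at 0.78. The genes most like *Dcstamp* included the kinase gene *Src* (0.98), *Sipa1l3*, *Jdp2* and *Scin* (0.96), those most like *Ocstamp* were *Gsdmd* (0.97), *Acp5* (0.97), *Fam102a*, *Ifitm1* and *Tbc1d2b* (0.95), and those most like *Atp6v0d2* were *Cox14* (0.95), *5031439G07Rik*, *Atp6v1b2*, *Ccr1* and *Sys1* (0.93).

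Of 44 listed partners, paralogs, further fusion-related genes and regulators, 39 passed the minimum level. In the mutant 4 were at least 2-fold higher and 1 at least 2-fold lower, beside 7.11% and 2.69% of all genes, with a median log2 ratio of 0.28. Both CD47 partners were among the higher: *Sirpa*, the CD47 receptor of macrophages, was at 184 CPM in control and 442 in mutant cells (1.26, 1.24 to 1.28), and *Thbs1*, which encodes the CD47 ligand thrombospondin, at 2.30 and 9.26 (2.01, 1.84 to 2.18). CD47 and its macrophage receptor were thus both at higher transcript levels in the mutant library. The others were the tetraspanin *Cd53* (91.6 and 213, log2 ratio 1.21) and *Bcl6*, a transcriptional repressor (5.95 and 13.3, log2 ratio 1.16). Of the 5 other tetraspanins *Cd63* was lower, at 744 and 568 (-0.39), *Cd37* stood at 69.1 and 117 (0.76), and the partners *Igsf8* and *Ptgfrn* had log2 ratios of -0.04 and -0.78.

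The listed gene at least 2-fold lower in the mutant was *Prdm1*, which encodes Blimp1, a repressor of genes that hold back osteoclast formation (12.8 and 6.33, log2 ratio -1.02, -1.14 to -0.90). *Nfatc1* stood at 51.6 and 29.9 (-0.79). In the control, 5 listed genes were at least 2-fold higher in Ctsk/Mmp9-positive cells, beside 1.93% of all genes, *Prdm1* (log2 ratio 2.63), *Nfatc1* (2.28), the podosome scaffold gene *Sh3pxd2a* (1.46), the connexin gene *Gja1* (1.07) and *Mitf* (1.01). *Irf8*, which encodes a factor that restrains osteoclast formation, was at -1.12 and the scavenger receptor gene *Cd36* at -1.001. In the mutant 4 were higher there, beside 2.83% of all genes, *Thbs1* (2.92), *Prdm1* (2.05), *Gja1* (1.58) and *Nfatc1* (1.36), and *Irf8* was at -0.65.

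No UMI of the fusogen genes *Syna* and *Synb* was counted in either library, and *Adam12*, *Cdh1* and the osteoclast integrin gene *Itgb3* lay below 1 CPM. DAP12 (*Tyrobp*) and *Trem2*, a receptor pair of the myeloid lineage, stood at 1751 and 3116 and at 413 and 602 CPM in control and mutant. *Slc1a5*, a glutamine transporter gene, stood at 41.3 and 21.7 (log2 ratio -0.93).

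**Figure D4:**
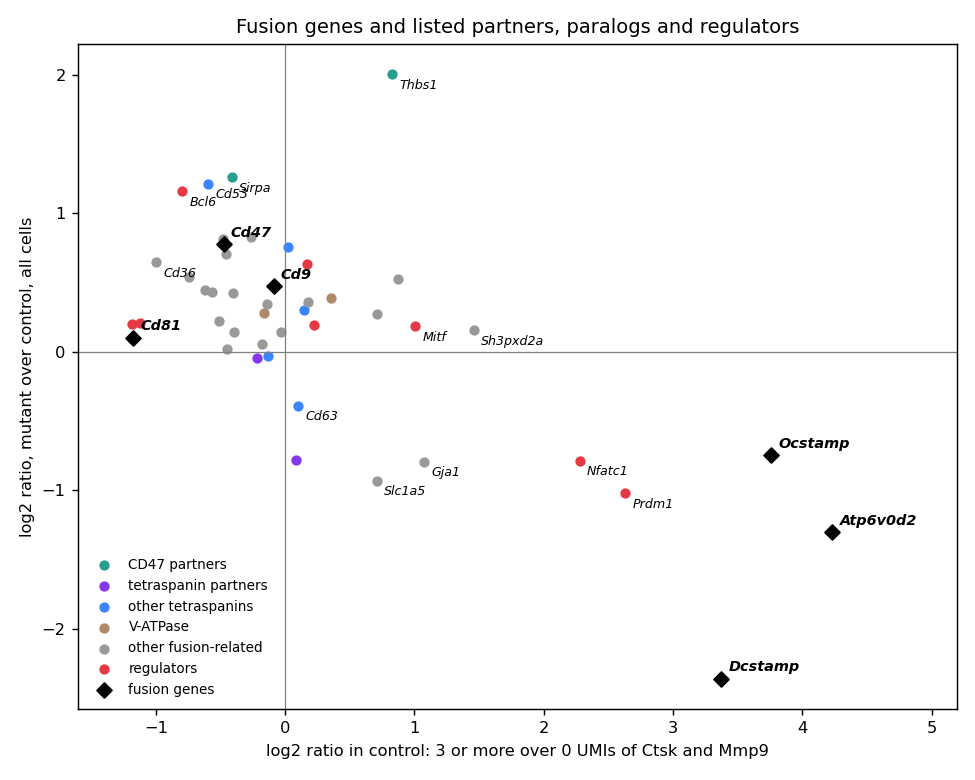
Each point is a gene, with the log2 ratio of control cells with at least 3 over those with 0 UMIs of *Ctsk* and *Mmp9* on the x axis and of mutant over control in all cells on the y axis, both using the control library. The fusion genes (black diamonds) lie in separate places, with *Dcstamp*, *Ocstamp* and *Atp6v0d2* at 3.37 or more on x and below 0 on y, on the same side of both axes as *Nfatc1* and *Prdm1*, and *Cd47* and *Cd9* above 0 on y.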

How the data were processed

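Single-cell 3′ libraries (10x Chromium v3.1) of 1 control and 1 LysM-Cre;Arid1afl/fl culture were aligned and counted by the authors with Cell Ranger (version 6.1.0 in the file headers) on GRCm39, per the labels. The deposited matrices hold raw UMI counts per gene and barcode for 32544 genes, with no normalization. No filter for doublets is given in the sources used here.

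Cells with at least 500 genes and at most 10% mitochondrial UMIs were kept (186 control and 202 mutant barcodes failed), leaving 163618835 and 131469887 UMIs. UMIs were summed over cells and divided by the cells' total (CPM). Counts of genes took those averaging 1 CPM or more over the groups compared, and a 2-fold difference was the call, since 1 library per genotype allows no test. Shares were read after thinning each cell to 5000 UMIs. A count of 0 allows up to 3 counts. Doublets were left in, and scores against simulated doublets (333 control and 275 mutant barcodes) served an alternative. Gene positions are from GENCODE on GRCm39 (31977 of 32544 IDs matched) and promoters from RefSeq. Named genes were the 6 members, *Ctsk*, *Mmp9*, *Arid1a*, the listed partners and regulators, the 5 genes most like each of *Dcstamp*, *Ocstamp* and *Atp6v0d2*, and the markers, of which some are not reported here. Members and lists were chosen with earlier results of these data known. Alternatives were other scalings (edgeR 4.0.16 TMM, median of ratios, totals without mitochondrial and ribosomal protein genes), filters, gates, thinning and cell weights. Interval coverage was tested on simulated Poisson counts per gene and library, which leave out the clustering of UMIs in few cells. Python 3.11.15, numpy 2.4.6, scipy 1.17.1, pandas 2.3.3 and scikit-learn 1.9.0 were used.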

Additional observations from a re-analysis of the deposited data

Results flagged for a closer look

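*Cd9* lay on opposite sides of 0 in the libraries when Ctsk/Mmp9-positive cells were set against negative ones, with a log2 ratio of 0.168 in the mutant and -0.09 in the control. With 1 library per genotype, the difference was not tested across samples. The direction in the control turned with cells thinned to 5000 UMIs and sorted anew, and with *Ctsk* alone as the marker. That in the mutant turned with *Mmp9* alone.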

How the results depend on the processing

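No paired analysis was possible because each genotype had 1 library. For the same reason no replicate could be left out. Of 438 values of single members under the alternatives, 274 stayed within the counting interval, 154 moved beyond it in the same direction or near 0, and 10 turned. The median log2 ratio of the 6 genes between libraries (-0.32) was -0.41 with the median of ratios and -0.43 without mitochondrial and ribosomal protein genes, and it turned to 0.10 at a minimum mean of 5 CPM, which drops *Ocstamp*. Leaving out doublet-scored, neutrophil-marker or poor cells, or using TMM, did not move it. The count of members at least 2-fold lower was 2 under every alternative except a 1.5-fold limit, which gave 3.

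The median log2 ratio of positive over negative cells was 1.64 in the control and 1.34 in the mutant. It was 1.80 and 1.75 with levels and classes both read at 5000 UMIs, and 1.87 and 1.77 with only the classes read at that depth. With at least 1 UMI it was 1.26 and 0.94, and with at least 5 UMIs 1.83 and 1.505. It was 1.51 in the control with *Ctsk* alone, and in the mutant 1.57 with *Mmp9* alone and 1.03 with *Ctsk*, *Mmp9* and *Acp5*.

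The values that turned were, between libraries in positive cells, *Dcstamp* with *Mmp9* alone (0.25), and in negative cells *Ocstamp* after thinning (-0.19) and with *Ctsk* alone (-0.19), *Atp6v0d2* with *Ctsk* alone (-0.013) and *Cd81* with *Ctsk* alone (0.0039). For positive over negative cells they were *Cd9* in the control after thinning (0.028) and with *Ctsk* alone (0.078), *Cd9* in the mutant with *Mmp9* alone (-0.39) and *Cd47* in the mutant with *Ctsk*, *Mmp9* and *Acp5* (0.0042). *Cd81* between all cells was -0.0058 without mitochondrial and ribosomal protein genes. The cause was not tested. The scalings shift every gene by -0.063 (TMM), -0.09 (median of ratios) and -0.11 (without those genes). The split by *Mmp9* was chosen after seeing the data, and over its alternatives the mutant-over-control log2 ratio in cells with *Mmp9* was 0.01 to 0.38 for *Dcstamp*, 0.96 to 1.18 for *Ocstamp* and -0.44 to 0.091 for *Atp6v0d2*. Intervals cover counting error only, and 50 mutant cells with *Mmp9* are few.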
